A study of Rattus norvegicus with 6 samples.

Results

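Septins are a family of GTP-binding cytoskeletal proteins, and 6 of their genes are described here: Septin1, Septin2, Septin5, Septin6, Septin10 and Septin11. In the authors' comparison table these genes carry symbols that read as calendar dates (1-Sep, 2-Sep, 5-Sep, 6-Sep, 10-Sep and 11-Sep), the form that a septin symbol takes when a spreadsheet turns it into a date. They were taken from a list of date-named rows that had been drawn up with earlier results of these data in view. They are 6 of the 17172 genes and loci in the files. A search by symbol alone would miss them, so each was identified by its gene ID: 293507 (Septin1), 117515 (Septin2), 116728 (Septin5), 691335 (Septin6), 309891 (Septin10) and 305227 (Septin11). In the RefSeq gene table, all 6 IDs belonged to the septin whose number the date carries. The other 6 septins in the files (Septin3, Septin4, Septin7, Septin8, Septin9 and Septin12) were stored under date-like symbols too, again with matching numbers. The symbols therefore do not set the 6 genes described apart from these, which are used only for comparison. No septin date symbol was carried by more than 1 row.

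The study measured poly(A) RNA in c-kit+ cells, the fraction of bone marrow that carries the stem cell factor receptor and holds most blood-forming progenitors, taken from ACI rats, an inbred strain. The PHZ group was 3 rats given PHZ (the usual abbreviation of phenylhydrazine, a compound that destroys red blood cells) by the peritoneal route at 100 mg/kg, and the PBS group was 3 rats given phosphate-buffered saline in the same way. Marrow was taken from the hind legs at 36 h, rats were 6 to 8 weeks old, and each group holds 2 rats labelled female and 1 labelled male. Cells were pulled down with a biotinylated antibody to c-kit and streptavidin particles, so the fraction is enriched by a surface marker and is not a single cell type.

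Septins join end to end into rod-shaped complexes, and the rods assemble into filaments and rings that sit under the cell membrane, at the cleavage furrow of dividing cells and around sites of secretion. A complex draws one subunit from each of several homology groups, named after SEPT2, SEPT6, SEPT7 and SEPT3, and members of one group can take the same place in the rod. In blood cells septins are known from platelets, where they take part in granule release, and from leukocytes, where they stiffen the cell cortex during movement. Of the 6 genes, Septin1, Septin2 and Septin5 belong to the SEPT2 group and Septin6, Septin10 and Septin11 to the SEPT6 group. Septin4 and Septin8 are the remaining members of those groups, Septin7 stands alone in its own, and Septin9, Septin3 and Septin12 form the SEPT3 group.

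The start regions of 4 septins are shown because these genes behaved differently in the libraries (Septin1 low after PHZ, Septin8 high, Septin2 and Septin11 within or near the spread) and because their promoters differ in base composition. Each run covers the 250 bases before the annotated transcription start and the first 30 bases after it, 5′ to 3′ on the gene's own strand, from RefSeq on assembly GRCr8. Capitals mark matches to AGATAA, also with T as its first base or G as its last or both, the core read by GATA factors, and to GAGGAAGT, a core read by ETS factors such as PU.1, on either strand. These motifs were picked after the promoters had been seen.
Septin1: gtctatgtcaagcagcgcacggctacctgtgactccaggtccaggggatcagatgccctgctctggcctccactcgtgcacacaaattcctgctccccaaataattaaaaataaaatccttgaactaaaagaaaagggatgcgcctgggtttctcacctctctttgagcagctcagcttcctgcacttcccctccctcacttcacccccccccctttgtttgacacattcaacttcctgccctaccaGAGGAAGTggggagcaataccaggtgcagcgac
Septin2: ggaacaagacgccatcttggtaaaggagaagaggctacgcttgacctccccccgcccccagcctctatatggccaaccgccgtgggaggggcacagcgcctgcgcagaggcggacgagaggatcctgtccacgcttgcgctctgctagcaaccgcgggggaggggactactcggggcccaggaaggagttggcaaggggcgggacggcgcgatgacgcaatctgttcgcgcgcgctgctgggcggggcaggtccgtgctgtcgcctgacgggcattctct
Septin11: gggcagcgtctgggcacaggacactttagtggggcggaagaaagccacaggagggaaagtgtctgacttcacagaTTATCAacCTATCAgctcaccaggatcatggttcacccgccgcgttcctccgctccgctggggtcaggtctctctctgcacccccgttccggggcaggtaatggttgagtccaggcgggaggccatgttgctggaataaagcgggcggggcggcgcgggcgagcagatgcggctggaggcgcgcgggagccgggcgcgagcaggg
Septin8: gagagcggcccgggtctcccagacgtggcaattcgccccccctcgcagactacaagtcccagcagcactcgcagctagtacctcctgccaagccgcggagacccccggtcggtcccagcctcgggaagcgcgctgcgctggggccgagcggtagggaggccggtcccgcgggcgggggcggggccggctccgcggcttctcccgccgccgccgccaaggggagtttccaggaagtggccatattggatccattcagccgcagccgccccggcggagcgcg

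The Septin1 window lies at chr1:191267037-191267316 on the minus strand, that of Septin2 at chr9:101465367-101465646 on the plus strand, that of Septin11 at chr14:15275171-15275450 on the minus strand and that of Septin8 at chr10:38185207-38185486 on the plus strand. The Septin1 promoter had the lowest GC content of the 4, at 52.9% with 5 CpG dinucleotides, close to the median of all 33469 promoter windows of the same length (51.4% and 6 CpG). Septin2 had 67.1% GC and 27 CpG, Septin11 65.0% and 23 CpG, and Septin8 73.6% and 34 CpG. Septin10, at chr20:27737785-27738064 on the minus strand and not printed, had 68.9% and 29 CpG. Of the other septins not printed, Septin7 had 63.2% and 29 CpG, and Septin9 had windows of 55.4%, 68.9% and 60.4% GC. The printed windows were picked on both expression and base composition, so nothing is read from their order by GC content. The table used holds promoter entries for 4 of the 6 genes. Septin5 and Septin6 are therefore named only.

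In the Septin1 window 1 GAGGAAGT match began 3 bases before the annotated start and ran across it, and such a match was found in 2.29% of all windows. The Septin11 window held 2 GATA matches, both on the opposite strand, and a GATA match was found in 29.0% of windows. Neither of these motifs matched in the Septin2 or Septin8 window. The patterns CCNCNCCC (N for any base) and TATAAA were searched as well and are not marked. CCNCNCCC matched 4 times in the Septin1 window, 7 in Septin2, 1 in Septin11 and 3 in Septin8, and was found in 45.1% of windows. TATAAA matched in none of the printed windows and in 13.7% of all. These are matches of letters. Neither the matches nor the GC content were tested against the expression values.

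Library totals ran from 13196249 to 19492793 estimated counts, and 3 counts correspond to 0.154 to 0.227 CPM (counts scaled to the library's size) in a library. Septin10 had 62 to 123 counts in a library and the other 5 genes 345 to 3674. Counts of Septin2, Septin6, Septin10 and Septin11 were whole (within 0.005) in 6 of 6 libraries and those of Septin5 in 5, while those of Septin1 were whole in 1, as happens where reads are divided between genes. Kit, the gene of the selection marker, was at 56.8 ± 6.32 CPM (SD, n = 3) in PBS and 53.5 ± 18.9 (SD, n = 3) in PHZ. Y-linked RNA went against the sex label in 3 of 6 libraries: PBS replicates 1 and 2 and PHZ replicate 3. The sum of 3 Y-linked genes was 210 CPM in PBS replicate 1, labelled female, 0.0615 in PBS replicate 2, labelled male, and 162 in PHZ replicate 3, labelled female. Values without those 3 libraries are given beside the results, where PBS is then a single library (replicate 3) and is assumed to vary like the PHZ libraries. Nothing in the labels says more of the replicates than that they are separate rats.

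The question of the comparison was what differs in c-kit+ cells between PHZ and PBS at 36 h. Of the 6 septins, Septin1 and Septin6 were lower in PHZ, Septin5 had a lower mean with groups that overlapped, and Septin2, Septin10 and Septin11 differed by 0.17 or less on the log2 scale in either direction. Because the genes were proposed with results of this contrast in view, their PHZ and PBS values are a description, with no p printed. All 6 were among the 13547 genes tested with edgeR, and 2 of them, Septin1 and Septin6, both lower, were among the genes with an adjusted p under 0.05. Over all genes tested the share called was 13.2%, with 8.99% higher and 4.17% lower, and nothing is read from the members' count. In CPM, all PHZ libraries lay above all PBS libraries for 1 of the 6 and below them for 2, where the share of all genes without overlap was 41.7% (22.5% higher and 19.2% lower). Their median log2 fold change was -0.42, beside -0.04 over all genes. The number of called genes fell from 1783 to 0 without PBS replicate 2 and to 0 without PBS replicate 3, and it was 266 without PHZ replicate 2 and 572 without PHZ replicate 3. No member was called in any of those 4 fits. These are bulk libraries, so fewer cells of a type and less RNA per cell cannot be told apart.

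**Figure D1:**
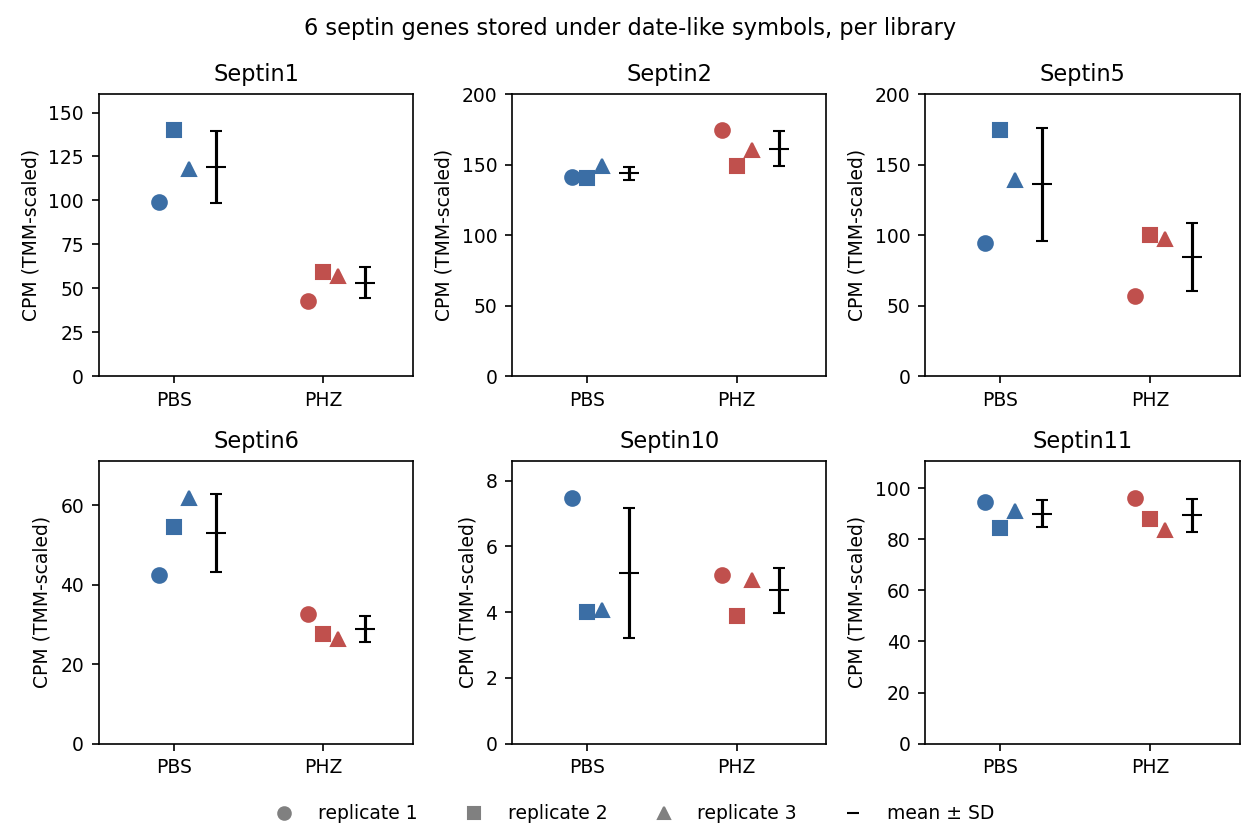
CPM of the 6 septin genes in each library, 3 PBS (blue) and 3 PHZ (red), with the mean and SD beside each group; vertical axes start at 0 and differ between panels. Every PHZ library was below every PBS library for Septin1 and Septin6, while Septin10 and Septin11 overlapped.

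Septin1, a SEPT2-group septin known from lymphoid cells, was at 99.2, 139.9 and 117.7 CPM in PBS replicates 1, 2 and 3. In PHZ it was at 42.9, 59.1 and 57.2 CPM. The groups did not overlap, and the lowest PBS library stood well above the highest PHZ library. PHZ over PBS gave a log2 fold change of -1.16 ± 0.19 (SE), a level 2.24-fold lower. Per length, the level fell from 81.8 ± 15.5 to 35.1 ± 3.69 FPKM (fragments scaled by gene length and library size, mean ± SD, n = 3 in each group). The log2 fold change was -1.20 without the 3 libraries that went against their sex label, -1.03 without PBS replicate 2, -1.17 without PBS replicate 3, -1.24 without PHZ replicate 2 and -1.21 without PHZ replicate 3, and in each of these 5 fits the gene was no longer called. The authors' deposited table lists a log2 ratio of -1.22 for it and marks it as down.

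Septin6, a SEPT6-group subunit that is also a fusion partner of the KMT2A gene in leukaemia, was at 42.5, 54.6 and 61.9 CPM in the 3 PBS libraries. The PHZ libraries stood at 32.5, 27.6 and 26.4 CPM. The groups were apart, with PBS replicate 1 and PHZ replicate 1 nearest to each other. Its log2 fold change was -0.88 ± 0.18 (SE), a level 1.84-fold lower, and the FPKM means were 26.3 ± 3.87 and 14.0 ± 2.88 (SD, n = 3). It was -1.04 without the 3 libraries that went against their sex label, -0.85 without PBS replicate 2, -0.75 without PBS replicate 3, -0.84 without PHZ replicate 2 and -0.82 without PHZ replicate 3, again with the call lost in each. In the authors' deposited table its log2 ratio was -0.91, with no mark as up or down.

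The summed levels of several marker lists, lymphoid ones among them, were lower in the same libraries. The summed CPM of 17 B-lineage genes ran from 1009 to 1201 in PBS and from 456 to 525 in PHZ. Of these, 9 of 16 tested genes were called lower and 0 higher. The sum of 15 T and NK genes ran from 346 to 535 in PBS and from 211 to 244 in PHZ, with 9 of 15 called lower and 0 higher. All T and NK genes were seen in every library, and of the B-lineage genes Vpreb3 was at 0 in at least 1. Sums also lay lower in PHZ without overlap for 13 stem and early progenitor genes, at 436 to 540 CPM in PBS and 290 to 367 in PHZ. Of these, 3 of 11 tested genes were called lower. Lower sums without overlap were also seen for 10 mast cell and basophil genes (7706 to 9685 and 4500 to 5709, 0 of 10 called) and for 16 monocyte, macrophage and dendritic genes (16385 to 17409 and 10262 to 15767, 0 of 14 called). Mecom of the first list and Marco of the last were at 0 in at least 1 library. The neutrophil and megakaryocyte sums, given with Septin5, did the same. The part of any of these cells in the Septin1 and Septin6 values was not tested.

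Septin5, a SEPT2-group septin that binds syntaxins and takes part in granule release from platelets and neurons, was at 94.8, 174.5 and 139.1 CPM in PBS. In PHZ it was at 57.0, 99.98 and 97.2 CPM. PBS replicate 1 lay below PHZ replicates 2 and 3, so the groups overlapped in CPM. The log2 fold change was -0.68 ± 0.30 (SE), and without the 3 libraries that went against their sex label it was -0.82. In FPKM the groups did not overlap, at 29.7, 55.2 and 39.2 in PBS and 18.6, 25.8 and 28.5 in PHZ, the highest PHZ library lying just under the lowest PBS library. The gene was called neither in the fit reported nor in any of 15 alternative fits, and its log2 fold change ran from -0.88 without PBS replicate 1 to -0.46 without PBS replicate 2 or PHZ replicate 1.

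Within each group, replicate 1 was lowest for Septin5, as it was for Septin1 (99.2 CPM in PBS and 42.9 in PHZ). It was also lowest for the summed CPM of 15 neutrophil genes, at 13670, 28539 and 23208 in PBS and 6321, 12772 and 12412 in PHZ. Of these, 1 of 14 tested genes was called lower and 0 higher, with Ltf at 0 in at least 1 library. The summed megakaryocyte and platelet genes were at 593, 505 and 579 CPM in PBS and at 336, 387 and 417 in PHZ. For this list replicate 1 was highest in PBS and lowest in PHZ, and 2 of 11 tested genes were called lower. The part of these cells in the Septin5 values was not tested. Gp1bb, a platelet receptor subunit of that list, had 0 counts in 5 libraries and 25.7 in PHZ replicate 2. Its gene overlaps Septin5 in the RefSeq table, and how reads of the pair were divided is not given in the sources used here, so the Septin5 values may hold reads of Gp1bb.

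Septin2, the SEPT2-group subunit that binds non-muscle myosin at the cleavage furrow, was at 141.5, 140.7 and 148.9 CPM in PBS. Its PHZ libraries were at 174.2, 149.3 and 160.2 CPM. All PHZ libraries were above all PBS libraries, but the gap between PHZ replicate 2 and PBS replicate 3 was under 1 CPM. The log2 fold change was 0.17 ± 0.12 (SE), and it was 0.12 without the 3 libraries that went against their sex label. In FPKM the groups overlapped, at 45.4 ± 1.24 in PBS and 49.7 ± 8.96 in PHZ (SD, n = 3), and PHZ replicate 2, at 40.8, was the lowest of the 6.

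Septin11, a SEPT6-group septin with a known part in phagocytosis, was at 94.6, 84.3 and 91.2 CPM in PBS. In PHZ it was at 96.2, 88.0 and 83.8 CPM. The ranges lay almost on top of each other. PHZ over PBS gave a log2 fold change of -0.01 ± 0.12 (SE), and 0.01 without the 3 libraries that went against their sex label. Per length, the means were 20.7 ± 2.49 and 18.7 ± 4.23 FPKM (SD, n = 3), and the FPKM-based log2 differences of -0.15 to -0.16 were larger than that from counts. The gene length that the authors deposited for it, which can move with the transcripts a library holds, also differed between libraries, at 4282, 4437 and 4743 bases in PBS and 4480, 5092 and 4790 in PHZ. The CPM values were also scaled between libraries by TMM, while FPKM values were used as deposited. The parts of transcript choice and of scaling in the gap between FPKM and counts were not tested.

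Septin10, another SEPT6-group septin, was the least abundant of the 6. It was at 7.47, 4.02 and 4.06 CPM in PBS and at 5.12, 3.87 and 4.98 CPM in PHZ. PBS replicate 1 was high and the other 5 libraries lay close together. Its log2 fold change was -0.15 ± 0.34 (SE), but it was 0.21 without PBS replicate 1 and 0.14 without the 3 libraries that went against their sex label, so 1 library set its sign. In that library the sum of 10 stromal and endothelial genes was also highest, at 1273 CPM. It was 262 and 319 in the other PBS libraries and 274 to 303 in PHZ, with Col1a2 and Cdh5 at 0 in at least 1 library. Although the sums overlapped, 2 of 8 tested genes of the list were called lower and 0 higher. Their median log2 fold change was -2.52, beside -0.04 over all genes. The part of those cells in the Septin10 value was not tested.

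Labelled sex gave no call among the 6 genes. In an edgeR model with treatment and labelled sex, the log2 difference of male over female ran from -0.45 for Septin10 to 0.48 for Septin5, with adjusted p from 0.935 to 0.995, and 0 of the 6 had an unadjusted p under 0.05. Of 13547 genes tested with edgeR, 0 were called (0.0%) and 379 (2.8%) had an unadjusted p under 0.05. DESeq2 called 23 of 17165 (0.134%). Since 3 libraries went against their sex label, this contrast compares the labels and not the sexes.

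The remaining septins were tested in the same fit. Septin8, a SEPT6-group septin known from synaptic vesicles, rose from 67.6, 49.4 and 49.3 CPM in PBS to 137.1, 167.4 and 158.5 in PHZ, a log2 fold change of 1.48 ± 0.17 (SE, adjusted p = 0.0154, edgeR). Septin9, which acts at the last step of cell separation, fell from 285.6, 241.6 and 225.0 CPM to 175.8, 141.6 and 154.1, with a log2 fold change of -0.67 ± 0.15 (SE, adjusted p = 0.0377, edgeR). Septin7, the core subunit that the rods need, had a log2 fold change of 0.26 ± 0.14 (SE, adjusted p = 0.224, edgeR), which did not pass. Septin3, Septin4 and Septin12, known mainly from neurons, sperm and testis, were too low to be tested. Septin3 and Septin12 were at or under 0.49 CPM in every library, and Septin4 was at 3.10 CPM in PBS replicate 1, the library with the highest stromal sum, and between 0.12 and 0.75 in the others.

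Both calls were lost in some fits that left out 1 library. Septin8 had a log2 fold change of 1.40 (adjusted p = 0.0969) without PBS replicate 2 and 1.40 (adjusted p = 0.110) without PBS replicate 3 in the edgeR fits. In each of those fits 0 genes were called in all. Septin8 stayed called without PBS replicate 1 and without any 1 PHZ replicate, with adjusted p from 0.0228 to 0.0479 in edgeR. Septin9 was not called without any 1 of PBS replicates 1, 2 and 3 or PHZ replicates 2 and 3, with adjusted p from 0.0596 to 0.123 in edgeR. Without the 3 libraries that went against their sex label the adjusted p in edgeR was 0.467 for Septin8 (log2 fold change 1.63) and 0.589 for Septin9 (-0.51). A locus that the authors numbered as additional and annotated as a septin-9 isoform was at 34.9, 25.2 and 18.7 CPM in PBS and 20.5, 20.7 and 33.3 in PHZ. Septin9's counts were not whole in any library, so reads shared with that locus may have been split.

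**Figure D2:**
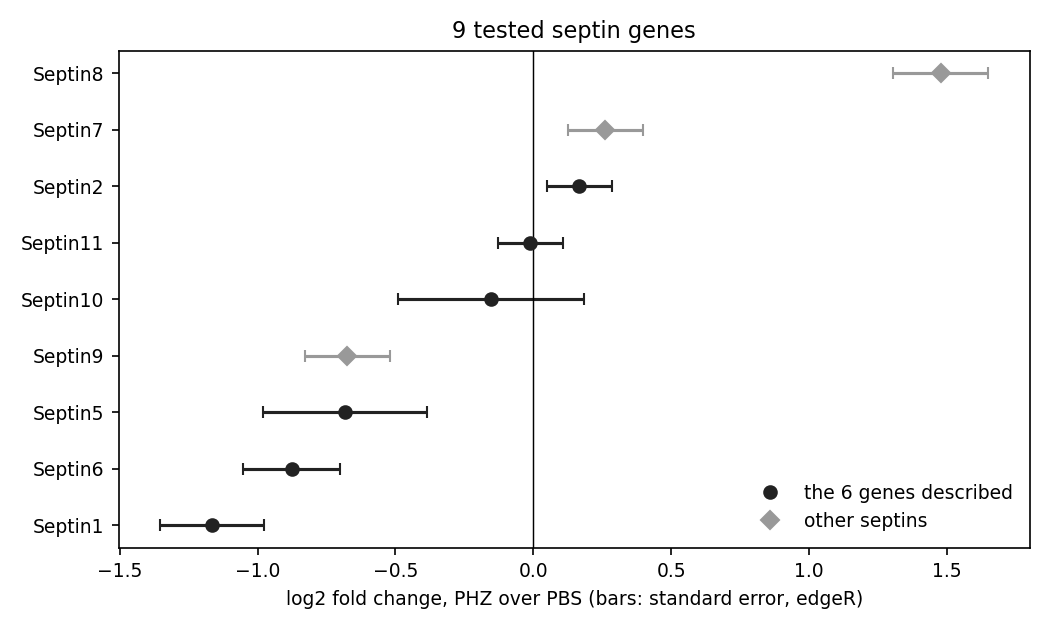
Log2 fold change of PHZ over PBS for the 9 septins tested, with standard errors from edgeR; black circles are the 6 genes described and grey diamonds the other septins. Septin1 lies lowest at -1.16 and Septin8 highest at 1.48, with Septin11 at -0.01.

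Per length, the order of the septins differed between the groups. By mean FPKM in PBS the order was Septin9, Septin1, Septin7, Septin2, Septin5, Septin6, Septin11, Septin8, Septin10, Septin4, Septin3 and Septin12. The ranges of neighbours overlapped for Septin9 and Septin1, Septin2 and Septin5, Septin6 and Septin11, Septin10 and Septin4, and Septin4 and Septin3. In PHZ the order was Septin7, Septin9, Septin2, Septin8, Septin1, Septin5, Septin11, Septin6, Septin10, Septin4, Septin3 and Septin12. There the ranges overlapped for Septin9 and Septin2, Septin8 and Septin1, Septin5 and Septin11, Septin11 and Septin6, and Septin3 and Septin12. Septin1 went from rank 2 to rank 5, and Septin6 from rank 6 to rank 8. Septin8 moved from rank 8 to rank 4.

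The make-up of the homology groups shows the same values from the side of the complex. In the SEPT2 group, Septin1 was 47.2%, 49.5% and 47.6% of the summed FPKM in PBS and 28.7%, 34.5% and 33.0% in PHZ. Septin2 held 31.1%, 22.9% and 27.6% in PBS and 53.9%, 39.8% and 42.2% in PHZ, so it replaced Septin1 as the most abundant transcript of its group in every PHZ library. Septin5 kept overlapping shares, 20.0% to 27.5% in PBS and 17.1% to 25.2% in PHZ. The summed FPKM of the group was 148.5, 200.7 and 159.3 in PBS and 109.0, 102.6 and 117.1 in PHZ, without overlap.

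In the SEPT6 group, Septin6 held 33.1%, 44.9% and 47.8% of the summed FPKM in PBS and 21.8%, 18.2% and 18.1% in PHZ. Septin8 held 26.3%, 20.2% and 19.1% in PBS and 45.8%, 56.1% and 54.2% in PHZ. Septin11 held 30.5% to 35.4% in PBS and 23.5% to 29.5% in PHZ, and Septin10 between 2.21% and 5.24% in all libraries. The sum of the group overlapped between PBS (66.1, 62.8 and 60.5 FPKM) and PHZ (79.4, 65.2 and 71.0). A share falls when another member rises, so these percentages are not independent of each other. RNA shares do not give the make-up of the protein complexes, which was not measured. The full erythroid marker list, in which Hba1 made up most of the counts, overlapped between the groups, at 74412 to 159780 CPM in PBS and 69595 to 197900 in PHZ. Without Hba1 the erythroid genes summed to 8776 to 12454 CPM in PBS and 16492 to 27901 in PHZ. Of the full list, 10 of 17 tested genes were called higher. The part of these genes in the Septin8 share was not tested.

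**Figure D3:**
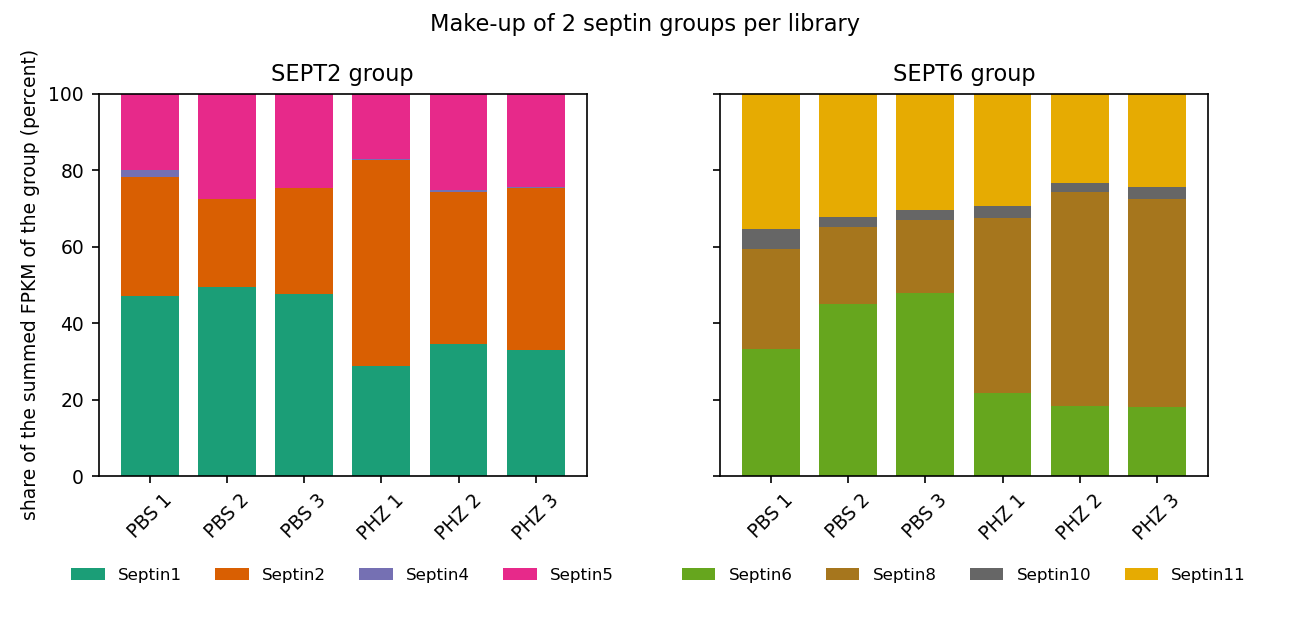
Share (percent) of the summed FPKM of the SEPT2 group and of the SEPT6 group held by each septin, 1 bar for each of the 3 PBS and 3 PHZ libraries. Septin1 is the largest part of the SEPT2 group in PBS and Septin2 in PHZ; Septin8 is the largest part of the SEPT6 group in each PHZ library.

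Genes of processes in which septins take part were described from 3 lists. The cytokinesis list is not limited to partners of septins and also holds mitotic kinases such as Plk1 and Aurkb, both called higher. The lists were chosen with earlier results of these data known, and called genes were named by smallest p. The p-values of the list genes are therefore a description and not an independent test. Of 30 cytokinesis genes, 27 were tested. At an adjusted p under 0.05 (edgeR), 12 were called higher and 0 lower. Over all genes tested the shares were 8.99% higher and 4.17% lower. Genes of the list that were not called went in both directions. The median log2 fold change of the list was 0.53, beside -0.04 over all genes tested. Racgap1, a GTPase-activating protein of the central spindle, rose by 0.75 ± 0.11 on the log2 scale (SE, adjusted p = 0.0187, edgeR). Myh10, a non-muscle myosin heavy chain, rose by 1.10 ± 0.16 (SE, adjusted p = 0.0190, edgeR), with means of 29.5 CPM in PBS and 63.4 in PHZ. Myh9, another non-muscle myosin heavy chain of the list, was more abundant and had a lower mean in PHZ, at 1066.5 and 661.6 CPM. Its log2 fold change of -0.69 ± 0.42 (SE, adjusted p = 0.283, edgeR) was not called. Prc1, which bundles spindle microtubules, rose by 0.93 ± 0.15 (SE, adjusted p = 0.0222, edgeR). The count of 12 became 0 without PBS replicate 2, 0 without PBS replicate 3, 3 without PHZ replicate 2, 2 without PHZ replicate 3 and 0 without the 3 libraries that went against their sex label.

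A list of 6 genes held the GTPase Cdc42 and its Borg-family effectors, which bind septin filaments. Of these 4 were tested (Cdc42, Cdc42ep2, Cdc42ep3 and Cdc42ep4) and 0 were called by edgeR, with a median of -0.43, and DESeq2 called 1. Of 21 SNARE and exocyst genes, 20 were tested, with 1 called higher and 0 lower. The called gene was Stx2, a syntaxin, with a log2 fold change of 1.03 ± 0.20 (SE, adjusted p = 0.0272, edgeR). That call was lost without any 1 of PBS replicates 2 and 3 and PHZ replicates 2 and 3. The median of the list was -0.14.

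The genes whose log2 CPM followed each septin most closely were sought among 8635 genes over the 6 libraries. For Septin1 they were Gprc5d (Pearson r = 0.997), As3mt (0.996) and Tgfb1 (0.994). For Septin6 they were Rnf111 (0.993), Zfp330 (0.991) and Dusp2 (0.988), and for Septin5 Inafm1 (0.996), Myl12b (0.992) and Marcksl1 (0.992). Septin2 was followed by Wdr75 (0.986), Tpr (0.983) and Ddx21 (0.981), Septin11 by Nepro (0.981), Atp6v1h (0.975) and Calr (0.967), and Septin10 by Mertk (0.999), Slc8a1 (0.989) and Ift88 (0.987). The highest r was over 0.98 for each of the 6 septins. These are the closest of 8635 genes over only 6 libraries that fall into a PBS and a PHZ group. The values of r are therefore a description and carry little weight.

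**Figure D4:**
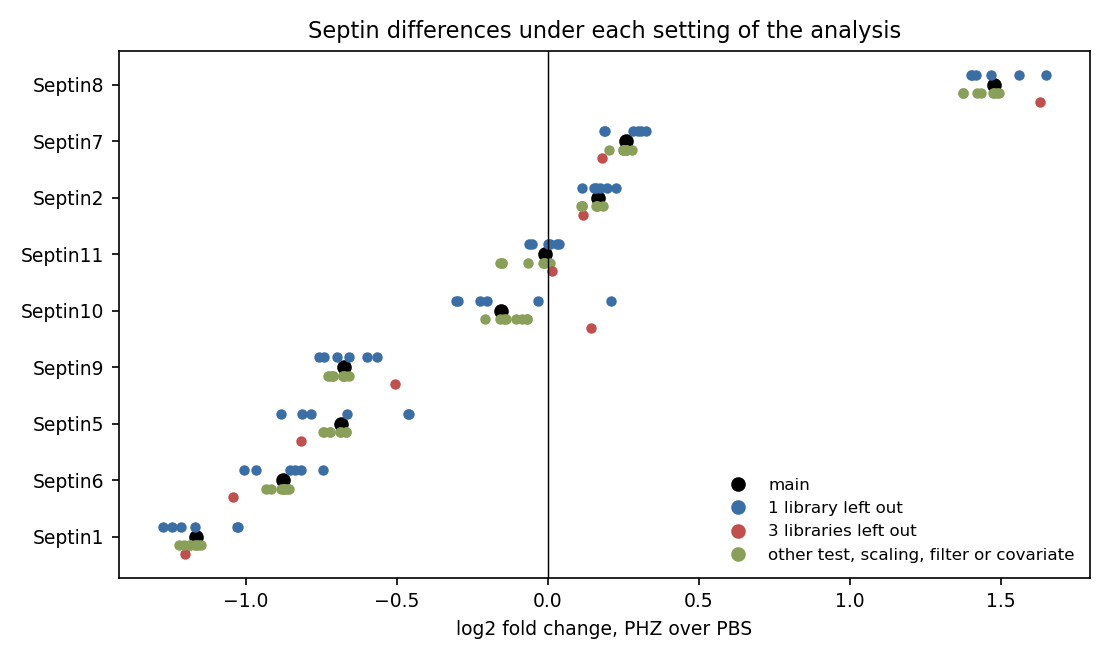
Log2 fold change of PHZ over PBS for the 9 tested septins under 15 alternative fits and the one reported (black). Septin1, Septin5, Septin6 and Septin9 stay below 0 and Septin2, Septin7 and Septin8 above 0 in all of them, while Septin10 runs from -0.31 to 0.21 and Septin11 from -0.16 to 0.04.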

How the data were processed

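Poly(A) RNA of 6 rats was sequenced, 1 library each. The authors' deposited library files hold, per the file headers, a gene length, an expected count (an estimate, so not always whole) and an FPKM value per gene. The authors' deposited comparison table gives mean FPKM per group and a log2 ratio, from which symbols were taken, and a score named Probability that was not used. Per the submitters' processing notes, HISAT, GATK, RSEM and rn6 were used. Roles, versions and anything else upstream were not given in the sources used here.

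Expected counts were rounded and all genes fitted with edgeR 4.0.16 (R 4.3.3; TMM, filterByExpr by group, robust glmQLFit, glmQLFTest, treatment only), with Benjamini-Hochberg adjustment over 13547 genes and a threshold of 0.05; the biological coefficient of variation was 35.2%. CPM values are TMM-scaled, except those of Y-linked genes, which are per library total. Each SE was derived from the log2 fold change and its quasi-likelihood F statistic. The steps were tested on simulated data. Replicates differed by more than sampling noise (chi-square of 49.0 or more per degree of freedom).

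The named genes are all septins and up to 3 called genes per partner list and direction with the smallest p. They also include the 3 genes most correlated with each member (mean log2 CPM of at least 2, prior count 2), Kit and the Y-linked genes. Myh9 is named beside Myh10. Members, lists and motifs were chosen with earlier results of these data known. Alternatives were DESeq2 1.42.0, upper-quartile scaling, no filter, leaving out each library, a replicate block, labelled sex, leaving out 3 libraries, and limma 3.58.1 on log2(FPKM + 1) or log2(FPKM + 0.1). Gene identities and promoters are from RefSeq (GRCr8); no gene coordinates are given.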

Additional observations from a re-analysis of the deposited data

How the results depend on the processing

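Over 210 alternative fold changes of 14 genes (9 septins, 4 partner genes and Kit), 151 kept direction and side of the threshold, 49 lost the call (6 of Septin1, 8 of Septin6, 4 of Septin8, 11 of Septin9 and the rest of partner genes) and 10 changed sign (2 of Kit, 2 of Septin10 and 6 of Septin11, none of them called). Kit turned from -0.09 to 0.01 without PBS replicate 2 and to 0.16 without PHZ replicate 1, its lowest value being -0.34 without PHZ replicate 3. DESeq2 called 3389 genes, 22 of the partner lists, 1 of the Cdc42 and Borg list and 4 of the exocytosis list; upper-quartile scaling called 2 of the exocytosis list and lowered the share of higher calls over all genes from 68.3% to 58.7%, and DESeq2 lowered it to 56.8%. With labelled sex as a covariate 928 genes, 1 member and 1 other septin were called. Without the 3 libraries that went against their sex label 0 genes were called, and 1480 had an unadjusted p under 0.05. With limma, calls over all genes were 1535, 1469 and, without a filter, 739. It called 1 other septin in each of these fits, and 1 member without a filter.

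With the replicate number as a block, 0 genes were called (4641 at an unadjusted p under 0.05), hence 0 members, 0 other septins and 0 of each partner list; same-numbered libraries had correlations of deviations of 0.21, 0.06 and 0.00, so the numbers were not taken as pairs, and not every library correlated best with its own number. Leaving out 1 library gave 0 to 1744 genes, 0 to 2 members, 0 to 2 other septins, 0 to 16 partner genes, 0 to 14 of the cytokinesis list and 0 to 2 of the exocytosis list. Without PBS replicate 2 and without PBS replicate 3, 3325 and 3291 genes had an unadjusted p under 0.05.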
